A study of Homo sapiens with 8 samples.

Results

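MicroRNA levels were compared between C4-2 cells, a human prostate cancer cell line derived from LNCaP, that carried a short hairpin RNA against EZH2 (shEZH2) and C4-2 cells that carried a control hairpin (shCTRL). The members are the microRNA rows of the small RNA table that reached 5 RPM (reads per 1000000 reads of the library) in 2 or more of the 4 small RNA libraries, and 241 of 1506 rows met this rule. The series holds 8 libraries in 4 groups, of which the 4 small RNA libraries, 2 per group, were used. The other 4 are polyA RNA libraries of shCTRL and shCDCA8 cells and were not used here. All cells were grown in serum-supplemented RPMI medium, and the labels give no treatment beyond the hairpin. The labels name 1 hairpin per target and do not say whether the shEZH2 cells are a clone or a pool. Neither EZH2 mRNA nor EZH2 protein is measured in these libraries, so the knockdown itself was not checked here. Nothing in the labels says that the 2 libraries of a group came from separate cultures, so every p-value measures the spread between these libraries, which may be technical. In bulk RNA, fewer cells that hold a microRNA and less of it per cell cannot be told apart.

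EZH2 is the catalytic subunit of Polycomb repressive complex 2, which methylates lysine 27 of histone H3 and keeps genes silent, and it is abundant in advanced prostate cancer. A microRNA hairpin is cut by Drosha and Dicer into a short duplex. One strand, from the 5p or the 3p arm, is kept in Argonaute while the other is mostly degraded. Bases 2 to 8 of the kept strand, the seed, pair with target mRNAs, so microRNAs with one seed tend to share targets. Several microRNAs are known to bind EZH2 mRNA (miR-101, miR-26a, let-7), and several microRNA genes are known targets of Polycomb silencing (miR-200 family, miR-181, miR-203, miR-31).

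The sequences that carry the results are given first, from RefSeq (GRCh38.p14), where 215 of the 241 names were matched. Mature sequences are written 5′ to 3′ with the seed in capitals. The first set holds the most abundant let-7 members, which share the seed GAGGUAG, and let-7i-5p, the 5p member with the largest difference.
let-7a-5p: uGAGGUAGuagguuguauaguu
let-7b-5p: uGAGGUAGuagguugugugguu
let-7c-5p: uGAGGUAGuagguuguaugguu
let-7i-5p: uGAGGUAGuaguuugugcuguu
The second set holds microRNAs that were lower in shEZH2 without overlap of the groups, none of them called by limma. The 4 miR-378 forms share the seed CUGGACU and differ in few bases outside it, and miR-345-5p, miR-1307-3p and miR-193a-5p each have a seed of their own among the kept rows matched.
miR-345-5p: gCUGACUCcuaguccagggcuc
miR-1307-3p: aCUCGGCGuggcgucggucgug
miR-193a-5p: uGGGUCUUugcgggcgagauga
miR-378a-3p: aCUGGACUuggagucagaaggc
miR-378b: aCUGGACUuggaggcagaa
miR-378f: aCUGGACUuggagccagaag
miR-378i: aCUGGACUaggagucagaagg
The third set holds microRNAs with a higher mean in shEZH2, none of them called by limma, with miR-30a-5p and miR-30c-5p sharing GUAAACA and miR-221-3p and miR-222-3p sharing GCUACAU.
miR-143-3p: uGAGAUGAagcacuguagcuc
miR-30a-5p: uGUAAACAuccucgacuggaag
miR-30c-5p: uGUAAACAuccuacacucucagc
miR-221-3p: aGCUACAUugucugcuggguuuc
miR-222-3p: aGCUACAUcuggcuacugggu
The last set gives 3 whole hairpins, with both mature arms in capitals, because the ratio of their arms differed between the groups. They lie at chr1:1167104-1167198 (MIR200B), chrX:50003148-50003238 (MIR532) and chr5:149732825-149732890 (MIR378A), all on the plus strand. In each, the 5p arm is the first capital run.
MIR200B: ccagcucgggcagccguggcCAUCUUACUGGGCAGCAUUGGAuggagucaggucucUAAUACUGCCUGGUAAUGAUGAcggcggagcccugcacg
MIR532: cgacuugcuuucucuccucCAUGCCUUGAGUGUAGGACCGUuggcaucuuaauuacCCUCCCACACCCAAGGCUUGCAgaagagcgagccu
MIR378A: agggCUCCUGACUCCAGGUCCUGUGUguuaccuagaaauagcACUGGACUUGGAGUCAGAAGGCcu

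The libraries held 4064692 and 4582403 reads in the microRNA rows for shCTRL and 6765539 and 5980595 for shEZH2, which was 10.8% to 18.3% of the reads that the deposited values were divided by. The share was lower in both shCTRL libraries, so values were rescaled to a sum of 1000000 over the rows of each library, called rescaled RPM from here on. Kept rows held 99.5% to 99.7% of the row reads, and the 5 most abundant rows held 51.0% to 54.8%. Values in the text are given in the order shCTRL replicate 1 and 2, then shEZH2 replicate 1 and 2. Reads carry no molecular identifiers, and since mature microRNAs are of similar length, levels of different microRNAs are set side by side as read shares without a length correction. Of the kept rows, 210 reached 5 RPM in all 4 libraries, 16 in 3 and 15 in 2, and 10 passed only through both shEZH2 libraries against 1 only through both shCTRL libraries. Just inside the rule were miR-30b-3p (3.52, 4.10, 6.63 and 5.01 RPM as deposited) and miR-365a-5p (5.10, 5.42, 4.41 and 5.04 RPM). Just outside were miR-23b-5p (2.19, 3.95, 5.08 and 4.96 RPM) and miR-660-5p (4.64, 2.57, 6.79 and 4.96 RPM).

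Markers of luminal prostate epithelium were present. Of 15 rows of that marker list 11 were kept, and together they made up 8.59% to 9.57% of the row reads, mostly miR-200c-3p, which restrains the mesenchymal programme, at 61727, 63927, 54602 and 65839 rescaled RPM. miR-375, typical of luminal and neuroendocrine cells, stood at 7468, 6269, 5093 and 4908. Of the basal list, miR-205-5p stood at 85.9, 53.5, 97.8 and 48.5, whereas miR-222-3p stood at 8705 to 13335 and miR-221-3p at 1051 to 1571, and its 8 rows together made up 1.04% to 1.52% of the row reads. The smooth muscle and fibroblast list held 0.022% to 0.056% of the row reads, with miR-145 rows summing to 2.95 to 20.7 rescaled RPM. None of the 1506 rows was at 0 in all 4 libraries, so a marker without reads would have no row. Some listed markers of other tissues, such as miR-133b, miR-208a and miR-208b, had no row.

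No microRNA was called as different between shEZH2 and shCTRL by limma (0 of 241 at an adjusted p under 0.05, 0%, lowest adjusted p = 0.178). At an unadjusted p under 0.05 there were 27 features (11.2%), of which 5 were higher and 22 lower in shEZH2. edgeR called 0, and DESeq2 called 11 (4.56%), of which 1 was higher and 10 lower. Over all alternative settings the adjusted p of these 11 reached at most 0.290 for miR-200b-5p and 0.490 to 0.939 for the others. The differences were small for most: 192 of 241 features (79.7%) differed by less than 0.5 on the log2 scale, and 11 by more than 1, of which 2 were higher and 9 lower. The median difference over all 241 was 0.02, and 131 features (54.4%) were above 0. Without rescaling the median was 0.43 and 197 were above 0, so every direction given here is relative to the sum of the microRNA rows. Both shEZH2 libraries were above both shCTRL libraries for 45 features (18.7%) and below them for 58 (24.1%), and the groups overlapped for 138. The 45 can include any of the 10 features that passed the minimum level only through shEZH2. The 58 include the 1 that passed only through shCTRL. The 2 shCTRL libraries differed from each other by a median of 0.25 per feature, as did the 2 shEZH2 libraries, and libraries of different groups by 0.25 to 0.35.

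**Figure D1:**
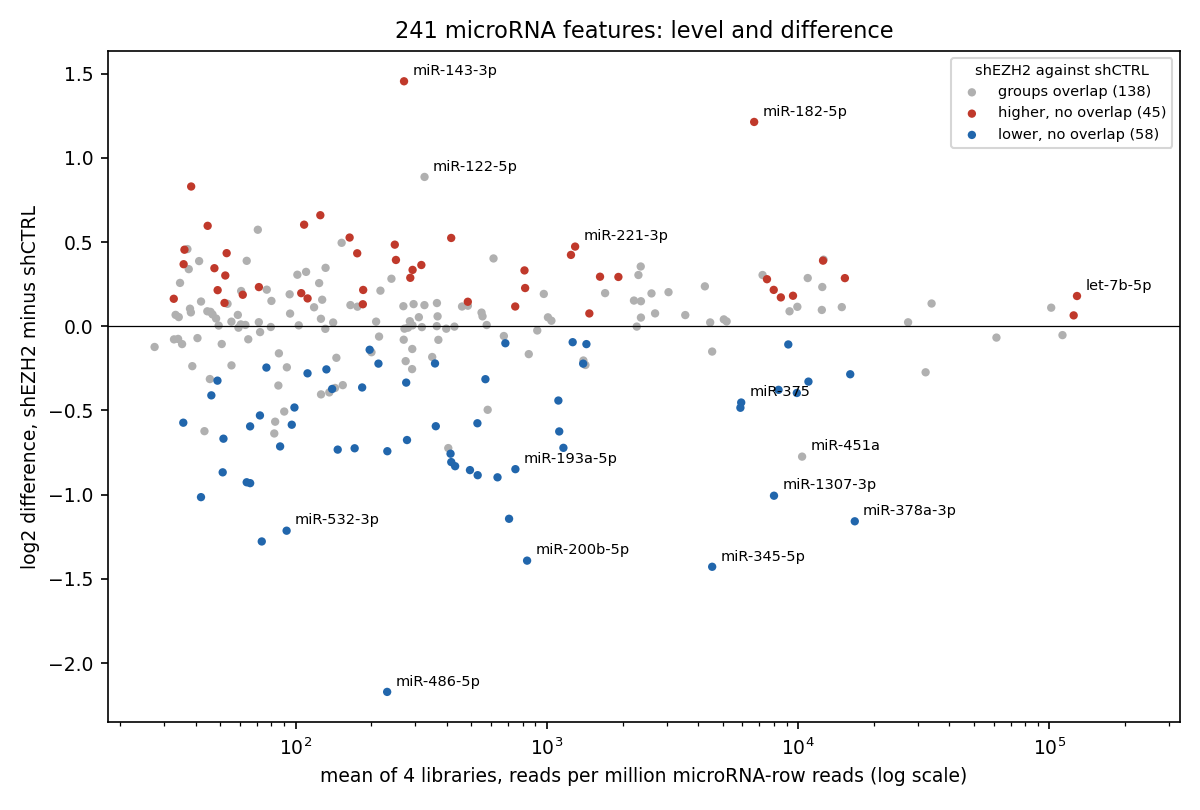
Each point is 1 of 241 kept microRNA features, with the mean of 4 libraries in rescaled RPM on a log axis and the log2 difference, shEZH2 minus shCTRL, on the other axis. Red and blue points are the 45 and 58 features whose groups do not overlap, and most points lie within 0.5 of 0, with more large negative differences than large positive ones.

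The most abundant microRNAs differed little, apart from miR-378a-3p (log2 difference -1.16). The 10 most abundant features were let-7b-5p, let-7a-5p, miR-99a-5p, let-7c-5p, miR-200c-3p, miR-191-5p, miR-92a-3p, miR-423-3p, miR-378a-3p and miR-652-3p, and of these only miR-378a-3p had an unadjusted p under 0.05. miR-99a-5p, encoded beside let-7c on chromosome 21, stood at 120531, 109029, 114123 and 107068 rescaled RPM (log2 difference -0.05 ± 0.0973 SE), and its groups overlapped. miR-92a-3p of the miR-17-92 cluster stood at 39345, 30955, 33181 and 25132 (-0.27 ± 0.206), again with overlap. miR-652-3p was lower in both shEZH2 libraries, at 17053, 18337, 13729 and 15346 (-0.28 ± 0.128, limma adjusted p = 0.459).

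let-7, the family that restrains growth genes such as RAS, MYC and HMGA2, made up 37.6% and 40.1% of the row reads in shCTRL and 42.1% and 42.9% in shEZH2. Of 21 let-7 rows 13 were kept, and 0 were called. In 12 of the 13 the mean was higher in shEZH2, against 54.4% of all features, with a median log2 difference of 0.15 against 0.02 over all. The groups did not overlap for 6 of the 13, all higher, where over all features 18.7% were higher and 24.1% lower without overlap. Under quantile normalization let-7a-5p turned to -0.03, while let-7a-3p, the 1 member below 0, was above 0 under each of the 7 other scalings and count models tried.

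let-7b-5p stood at 116315 and 125138 rescaled RPM in shCTRL and 132609 and 140798 in shEZH2 (0.18 ± 0.0890, limma adjusted p = 0.516). let-7a-5p stood at 122372, 121650.0, 132361 and 123004 (0.06 ± 0.0844, limma adjusted p = 0.804). In both, each shEZH2 library was above each shCTRL library, by margins of the size that separates libraries of 1 group. The clearest member was let-7i-5p, whose gene stands alone on chromosome 12, at 13879.5, 13779, 17094 and 16628 (0.29 ± 0.112, limma adjusted p = 0.459). let-7d-5p (0.18), let-7g-5p (0.22) and miR-98-5p (0.08) also did not overlap, while let-7c-5p (0.11), let-7e-5p (0.07) and let-7f-5p (0.09) did. Of the passenger arms, let-7b-3p varied most between libraries of 1 group, at 32.7, 81.0, 49.7 and 119.7 (0.57 ± 0.645), and let-7d-3p stood at 0.24, let-7e-3p at 0.15 and let-7a-3p at -0.0044. The let-7 members differ from each other at few bases, so reads could move between names in the authors' counting. Leaving out shCTRL replicate 1 lowered the family's count above 0 from 12 to 9 and its median to 0.07.

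Features that were lower in shEZH2 without overlap included miR-200b-5p, miR-345-5p, miR-378a-3p, miR-1307-3p and miR-532-3p. miR-200b-5p, the passenger arm of the miR-200b hairpin, stood at 1329 and 1091 rescaled RPM in shCTRL and 455 and 462 in shEZH2 (-1.39 ± 0.163). It had the lowest limma p of all features (adjusted p = 0.178, DESeq2 adjusted p = 1.55e-08). Both shEZH2 libraries were well below both shCTRL libraries and close to each other. When only the 104 features that reached 50 RPM in 2 or more libraries were tested, it was called by limma (adjusted p = 0.0422).

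miR-345-5p, from a hairpin on chromosome 14, stood at 8877, 4578, 2402 and 2336 (-1.43 ± 0.351, limma adjusted p = 0.299, DESeq2 adjusted p = 0.00385). The shCTRL libraries lay further apart than the shEZH2 libraries, and without shCTRL replicate 1 the difference was -0.95. miR-1307-3p, a GC-rich microRNA of chromosome 10, stood at 11413, 9977, 4865 and 5803 (-1.01 ± 0.165, limma adjusted p = 0.228, DESeq2 adjusted p = 0.000852). miR-193a-5p, whose other arm is a known growth suppressor, stood at 997, 929.6, 494 and 577 (-0.85 ± 0.156, limma adjusted p = 0.228, DESeq2 adjusted p = 0.00675). Neither of these had overlapping groups.

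miR-378a-3p, encoded in an intron of PPARGC1B and known for roles in lipid and mitochondrial metabolism, stood at 26272 and 20039 in shCTRL and 8613 and 12278 in shEZH2 (-1.16 ± 0.247, limma adjusted p = 0.245, DESeq2 adjusted p = 0.0072). It was the 9th most abundant feature, and its share of the row reads was 2.32% in shCTRL and 1.04% in shEZH2. The near-identical miR-378b, miR-378d, miR-378e, miR-378f, miR-378g and miR-378i had differences of -0.72 to -0.88 (limma adjusted p = 0.526 to 0.579), and the groups overlapped only for miR-378g. miR-378f, for example, stood at 955, 447, 291 and 429.9. In these 6, shCTRL replicate 2 lay close to shEZH2 replicate 2, and without shCTRL replicate 1 their differences were -0.21 to -0.34. Their levels moved together across libraries, and the sources used here do not say whether 1 read was assigned to several of these names, so they are uncertain as separate measurements. The other arm, miR-378a-5p, stood at 233, 227, 197 and 197 (-0.22 ± 0.174).

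Of the rarer features, miR-532-3p stood at 143, 115, 48.5 and 61.9 (-1.21 ± 0.260, limma adjusted p = 0.245, DESeq2 adjusted p = 0.00385). miR-877-5p, a mirtron spliced from ABCF1, stood at 977, 688, 436 and 444 (-0.90 ± 0.221, DESeq2 adjusted p = 0.02). miR-2110 stood at 1392, 1326, 896 and 866 (-0.62 ± 0.133, DESeq2 adjusted p = 0.0362). In each of these the 2 shEZH2 libraries were below both shCTRL libraries. miR-3944-5p (59.3, 53.9, 27.05 and 27.9) and miR-942-5p (80.9, 86.9, 39.0 and 48.8) differed by -1.01 ± 0.189 and -0.93 ± 0.224. miR-1268a (1037, 873, 298 and 621) and miR-7641 (84.1, 124, 51.0 and 33.9) differed by -1.14 ± 0.395 and -1.28 ± 0.337. The limma adjusted p of these 4 ranged from 0.228 to 0.434. Without shEZH2 replicate 1, miR-1268a differed by -0.62, and miR-3944-5p passed the minimum level only through the shCTRL libraries.

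**Figure D2:**
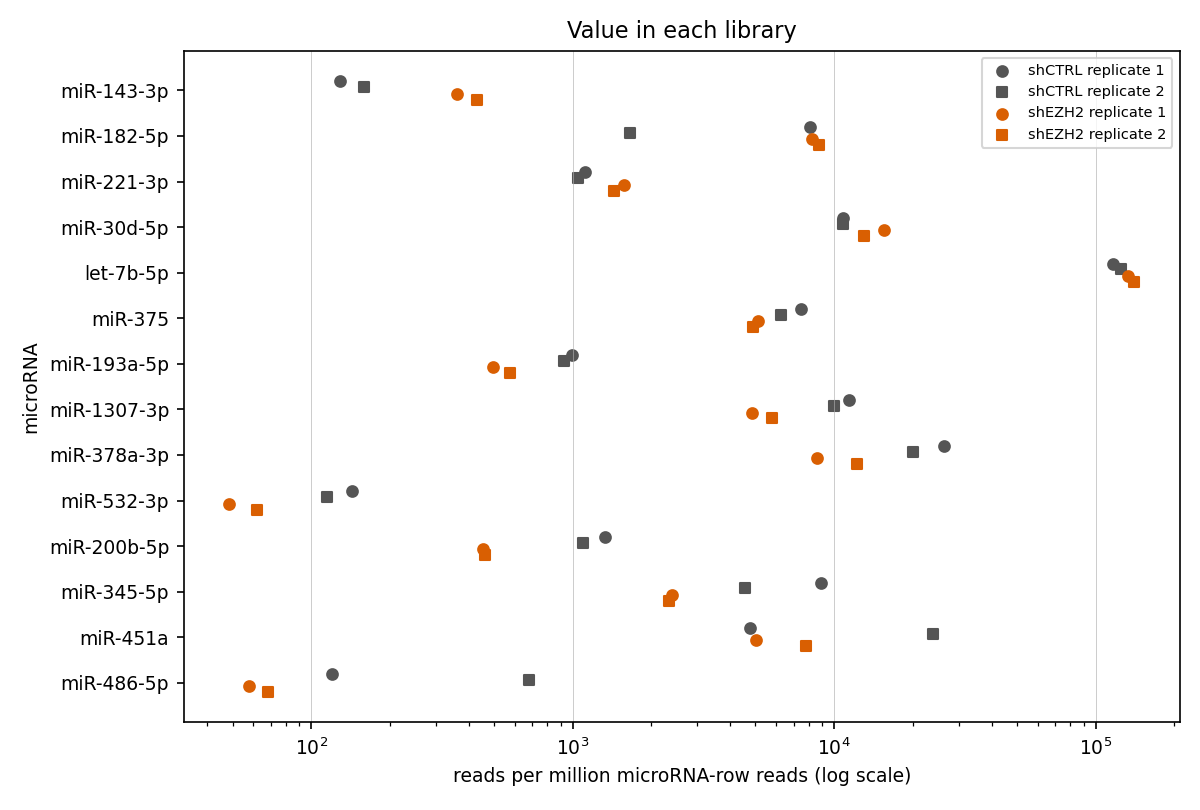
Each row is 1 microRNA and each symbol 1 library, in rescaled RPM on a log axis, with shCTRL in grey, shEZH2 in orange, circles for replicate 1 and squares for replicate 2. miR-200b-5p shows 2 tight groups (1329 and 1091 against 455 and 462), whereas for miR-182-5p, miR-451a and miR-486-5p shCTRL replicate 2 stands apart from the other 3 libraries.

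Differences went with the base composition of the mature sequence. Over the 215 features with a RefSeq sequence, the log2 difference and the GC content of the mature sequence had a Spearman correlation of -0.40 across features, which share the 4 libraries and are not independent. The same correlation was 0.02 for shCTRL replicate 2 minus replicate 1 and 0.19 for shEZH2 replicate 2 minus replicate 1. Features under 40% GC (26) had a median difference of 0.13, those of 40% to under 50% (70) 0.11 and those of 50% to under 60% (70) 0.03. The 49 features with 60% GC or more had a median of -0.28. Of these 49, 9 were above 0, 23 were below without overlap and 1 was above without overlap. Over all 241 features 54.4% were above 0, 24.1% were lower without overlap and 18.7% were higher without overlap. In the other GC ranges, from the lowest up, 3 of 26, 5 of 70 and 19 of 70 were below without overlap. miR-1307-3p (72.7% GC), miR-877-5p (65.0%), miR-345-5p, miR-532-3p and miR-2110 (63.6% each) and miR-1268a (83.3%) are in that group, while miR-200b-5p (50%), miR-942-5p (45.5%) and miR-378a-3p (54.5%) are not. The part of base composition in the differences was not tested.

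**Figure D3:**
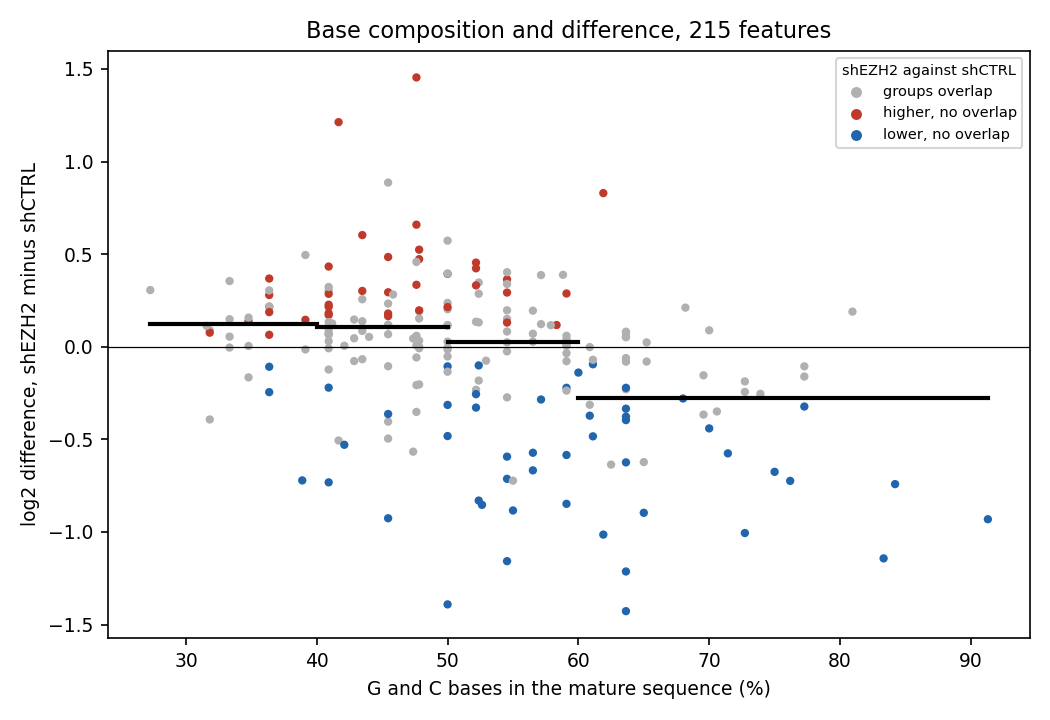
Each point is 1 of 215 features, with the GC content of its mature sequence in percent on the horizontal axis and the log2 difference, shEZH2 minus shCTRL, on the vertical axis, coloured by overlap of the groups. Black bars are the medians of 4 GC ranges, 0.13, 0.11, 0.03 and -0.28 from the lowest GC to the highest.

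The arms of several hairpins differed in ratio. Both arms are counted in the same library, so the ratio of 5p to 3p reads does not depend on how the libraries are scaled. Arms were paired by name, and some names, such as let-7a, are encoded at more than 1 locus. Of the 241 features, 111 are named as 5p arms and 83 as 3p arms, and 37 hairpins had both arms kept. This comparison was added after the levels had been seen. limma pools the spread over the 37 hairpins, so its p-values here rest partly on spread borrowed from other hairpins. limma on the log2 ratio called 6 of 37 hairpins (16.2%), 3 with a higher and 3 with a lower 5p share in shEZH2. The groups did not overlap for 19 of 37 (51.4%). These 19 include miR-769, miR-629 and miR-30b, each kept through an arm that passed the minimum level only in shEZH2 (miR-769-5p, miR-629-5p and miR-30b-3p). In 29 of 37 the ratio differed by less than 0.5 on the log2 scale, and the median was -0.06.

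At the miR-200b hairpin the 5p arm fell from 15.4% and 14.8% of the reads of both arms in shCTRL to 4.81% and 5.81% in shEZH2. The log2 ratio changed by -1.67 ± 0.244 (limma adjusted p = 9.39e-06, from 5403, 5000, 3081 and 2761 reads of the 5p arm). The 3p arm, which carries the known repressor of ZEB1 and ZEB2, stood at 7287, 6281, 9008 and 7484 rescaled RPM (0.28 ± 0.170), so the 5p arm was lower while the 3p arm was not. At miR-532, on the X chromosome, the 3p arm fell from 7.69% and 7.37% of both arms to 2.25% and 3.83% (ratio 1.42 ± 0.269, limma adjusted p = 0.000779), and miR-532-5p stood at 1716, 1449, 2103 and 1553 (0.20 ± 0.215). Both were called in each of the 4 fits that left out 1 library, in which the lone library is assumed to vary like the other group, but neither was called with the replicate number as a block (adjusted p = 0.119 for miR-200b and 0.165 for miR-532).

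At miR-378a it was the abundant 3p arm that lost share, and the 5p arm rose from 0.879% and 1.12% of both arms to 2.24% and 1.58% (0.93 ± 0.255, limma adjusted p = 0.0135). The 5p share fell at miR-200a from 4.78% and 5.53% to 2.77% and 3.44% (-0.77 ± 0.246, limma adjusted p = 0.0326). It fell at miR-342, a hairpin in an intron of EVL, from 9.58% and 7.06% to 4.79% and 5.15% (-0.78 ± 0.250, limma adjusted p = 0.0326). It rose at miR-769 from 18.9% and 15.5% to 27.3% and 23.7% (0.72 ± 0.248, limma adjusted p = 0.0454). However, miR-769-5p passed the minimum level only through the shEZH2 libraries, so the hairpin was kept because that arm was higher there. The miR-769 ratio was also not called under any alternative setting in which it was tested. For all 4 the groups did not overlap, but each lost its call without at least 1 library. Without shCTRL replicate 1 or without shEZH2 replicate 1, none of these 4 was called. Without shCTRL replicate 2 miR-200a and miR-769 were not called, and without shEZH2 replicate 2 miR-342 and miR-769 were not. miR-200c, with a 5p share of 0.1818% and 0.1605% against 0.102% and 0.116%, was in the same direction as miR-200a and miR-200b and not called (-0.65 ± 0.243, limma adjusted p = 0.064).

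With the replicate number as a block, none of the 6 hairpins was called by limma (adjusted p = 0.119 to 0.195), and 11 of 37 had an unadjusted p under 0.05. The arms also differ in GC content. Over the 31 hairpins with both sequences, the Spearman correlation of the GC difference between arms with the difference in ratio was -0.35 across hairpins. The arm with the higher GC content lost share in 4 of the 6 called hairpins and in 12 of the 25 others. The part of base composition in the arm ratios was not tested.

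**Figure D4:**
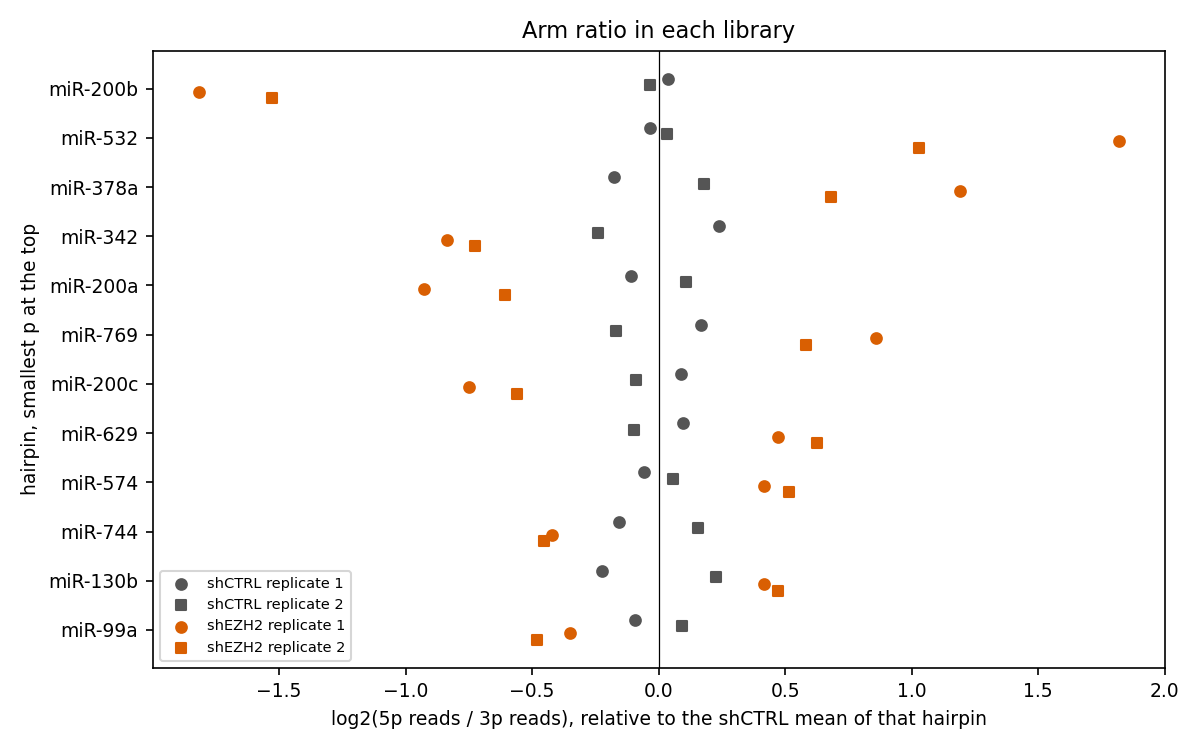
Each row is 1 of the 12 hairpins with the smallest p and each symbol 1 library, with the log2 ratio of 5p to 3p reads relative to the shCTRL mean of that hairpin, and colours and symbols by group and replicate. The shEZH2 libraries lie furthest from the shCTRL libraries at miR-200b (-1.67) and miR-532 (1.42), and nearer at the others.

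Among higher features, miR-143-3p had the largest difference. It is abundant in smooth muscle and often low in epithelial tumours, and it stood at 129 and 159.7 rescaled RPM in shCTRL and 361 and 431 in shEZH2 (1.45 ± 0.219, limma adjusted p = 0.228, DESeq2 adjusted p = 3.19e-05). Both shEZH2 libraries were over the shCTRL libraries by more than the spread within either group. It was called by limma on the values as deposited (adjusted p = 0.000139). Its partner in the same cluster, miR-145, had no kept row, and the other kept markers of smooth muscle and fibroblasts, miR-199a and miR-199b, overlapped between the groups. Summed over its 10 rows, that marker list stood at 224 and 386 in shCTRL and 549 and 555 in shEZH2, mostly miR-143-3p itself, and the part of other cells in its level was not tested.

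The miR-30 family, which restrains mesenchymal and Snail-driven genes, had 5 kept members of 11 rows, and 0 were called by limma. One of them, the passenger arm miR-30b-3p (0.16 ± 0.193), passed the minimum level only through the shEZH2 libraries, so its direction was set by the filter. The other 4, all 5p arms, were above 0 without overlap, by 0.39 to 0.60, against a median of 0.02 over all features and 18.7% of all features higher without overlap. miR-30d-5p, the most abundant, stood at 10854, 10851, 15507 and 13034 (0.39 ± 0.144, limma adjusted p = 0.441). miR-30b-5p stood at 137, 132, 193.6 and 194.1 (0.53 ± 0.184, limma adjusted p = 0.434), and miR-30c-5p at 79.7, 91.0, 114 and 148 (0.60 ± 0.250). miR-30a-5p differed by 0.48 ± 0.224, and by 0.29 without shEZH2 replicate 1.

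miR-221 and miR-222, a pair of neighbours on the X chromosome that target the cell cycle inhibitor p27, had higher means in shEZH2. miR-221-3p stood at 1118, 1051, 1571 and 1442 (0.47 ± 0.141, limma adjusted p = 0.42) and miR-221-5p at 43.3, 46.9, 60.3 and 62.2 (0.43 ± 0.193), both without overlap. miR-222-3p stood at 8705, 10973, 10653 and 13335 (0.29 ± 0.198), with overlap, and differed by 0.12 without shCTRL replicate 1. In the miR-29 family, known for targets in the extracellular matrix and DNA methyltransferases, 6 rows were kept. The 3 kept 3p arms, with seed AGCACCA, were higher without overlap, by 0.14 to 0.23, led by miR-29a-3p at 729, 782, 859.5 and 908. Over all features 18.7% were higher and 24.1% lower without overlap. The 5p arms miR-29b-1-5p (-0.51 ± 0.439) and miR-29b-2-5p (-0.48 ± 0.209) were lower, the second without overlap. The other kept 5p arm, miR-29c-5p, was above 0 (0.12) with overlap, and it was the more abundant arm of its hairpin. None of these was called.

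Other features higher without overlap included miR-574-5p (290.3, 396, 455 and 523, 0.52 ± 0.231), miR-342-3p (1079, 1019.8, 1773 and 1117, 0.42 ± 0.264) and miR-767-5p (754, 689, 947 and 869, 0.33 ± 0.145). miR-767-5p is encoded in an intron of the cancer-testis gene GABRA3 on the X chromosome. miR-126-3p, known from endothelium, stood at 1506, 1398, 2096 and 1511 (0.29 ± 0.211). For miR-342-3p and miR-126-3p the difference rested on shEZH2 replicate 1, and without it they stood at 0.09 and 0.06. Without shCTRL replicate 1, miR-574-5p stood at 0.30. The miR-125 family had 3 kept members, all above 0, among them miR-125b-2-3p (0.29 ± 0.159), which turned to -0.08 under quantile normalization.

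Of the 27 rows of microRNAs published as repressed by Polycomb, 17 were kept and 0 were called. In shEZH2 11 were higher and 6 lower, 4 without overlap in each direction (over all features 18.7% were higher and 24.1% lower without overlap), and the median was 0.11 against 0.02 over all features. Without shCTRL replicate 2, 7 of the 17 were above 0 and the median was -0.04. The lower members without overlap were the passenger arms miR-200b-5p, miR-200a-5p (434, 434, 265 and 312, -0.59 ± 0.184) and miR-200c-5p (112, 103, 55.6 and 76.4, -0.71 ± 0.261), and miR-203a-3p (423, 351, 341 and 321, -0.22 ± 0.191). The higher members without overlap included miR-200b-3p (0.28) and miR-200a-3p (8648, 7428, 9299 and 8760 rescaled RPM, 0.17 ± 0.147). So within the miR-200 family, which holds epithelial identity by restraining ZEB1 and ZEB2, 4 of the 8 kept members were above 0 and 4 below. miR-141-3p (177, 167, 198 and 202, 0.22 ± 0.179) and miR-429 (2373, 1761, 2993 and 2129, 0.30 ± 0.258) were above, and miR-200c-3p (-0.07 ± 0.128) was below. miR-200c-3p turned positive without rescaling (0.37), when rescaled without let-7 rows (0.02) and without shEZH2 replicate 1 (0.07).

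miR-31-5p, silenced by Polycomb in some tumours, stood at 192, 49.5, 212 and 73.2 (0.35 ± 0.868), and miR-205-5p at 0.02 ± 0.457. In both, replicate 1 of each group was the higher library and the groups overlapped. miR-34a-5p, a p53 target, stood at 15245, 13271, 17965 and 13185 (0.11 ± 0.201). Of the microRNAs published as targeting EZH2, miR-26a-5p (12992, 11048, 13400.3 and 12250.3, 0.10 ± 0.147) and miR-26b-5p (2712, 1791, 2934 and 2035, 0.15 ± 0.302) were the 2 kept of 16 rows, and both overlapped. miR-101 had 1 row, at 0.738, 3.27, 3.40 and 1.34 rescaled RPM.

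Among androgen-responsive microRNAs, 20 of 32 rows were kept and 0 were called, with 13 above 0 (8 without overlap) and 7 below (2 without overlap), and a median of 0.18, or 0.10 without shCTRL replicate 1. Over all features 18.7% were higher and 24.1% lower without overlap. In the luminal list 7 of 11 were above 0 and the median was 0.15, and in the basal list 4 of 5 with a median of 0.29. Without shCTRL replicate 2 the luminal median was 0.08, and 3 of the 5 basal members were above 0 without that library or without shEZH2 replicate 1. miR-375 was lower in both shEZH2 libraries (-0.45 ± 0.153, limma adjusted p = 0.434), but as deposited it stood at 810, 879, 932 and 743 RPM, with overlap. Another luminal marker, miR-148a-3p, stood at 152.3, 147, 203 and 201 rescaled RPM (0.43 ± 0.181, limma adjusted p = 0.459). miR-99b-5p stood at 11358, 11098, 8714 and 8353 (-0.40 ± 0.123, limma adjusted p = 0.42), without overlap, but at 0.04 without rescaling. No row of the lists for the 14q32 cluster (45 rows) and the chromosome 19 cluster (29 rows), both imprinted, reached the minimum level. Their rows summed to 33.2 to 55.0 and 6.11 to 12.3 rescaled RPM. The lists need not hold every microRNA of a region. miR-2392, at chr14:100814551-100814570, is not on the 14q32 list and was kept, at 211, 203, 180 and 195.

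**Figure D5:**
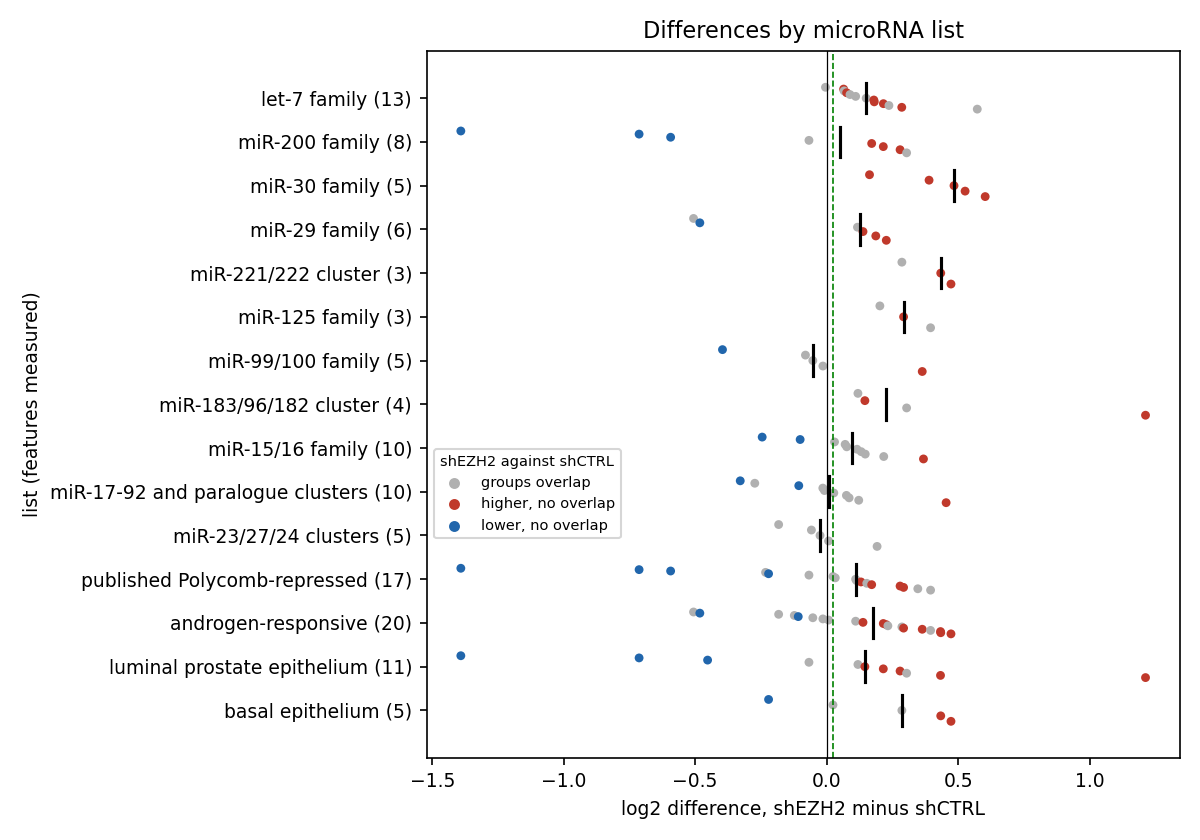
Each row is 1 list with its number of kept features, each point 1 feature by its log2 difference, shEZH2 minus shCTRL, and the short black bar the list's median. The dashed line is the median of all 241 features, 0.02. The miR-30 list, in which miR-30b-3p was kept through the shEZH2 libraries alone, and 12 of 13 let-7 points lie above 0, and the miR-200 and Polycomb lists spread to both sides.

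shCTRL replicate 2 stood apart in a few features. miR-182-5p, of a cluster with miR-183 and miR-96 that is often raised in carcinomas, stood at 8077, 1661, 8234 and 8759 (1.21 ± 0.793, limma adjusted p = 0.627). Only shCTRL replicate 2 was low, and without it the difference was 0.07. Its cluster neighbours miR-183-5p (7393, 5536, 9027 and 6914) and miR-96-5p (481, 439.7, 498 and 520.4) differed by 0.30 ± 0.231 and 0.15 ± 0.158, the first by 0.10 without that library. The erythroid microRNAs were high in the same library. miR-486-5p, called by DESeq2, stood at 121, 679, 57.8 and 68.4 (-2.17 ± 0.878, limma adjusted p = 0.459, DESeq2 adjusted p = 0.0151). miR-451a stood at 4784, 23880.3, 5010.1 and 7799.9 (-0.77 ± 0.835). Without that library they stood at -0.93 and 0.39. Summed over 11 rows, the blood and endothelium list held 0.646%, 2.61%, 0.721% and 0.942% of the row reads. miR-144, made from the same transcript as miR-451a, summed to 0.669 to 1.96 rescaled RPM. The part of other cells or of serum in the growth medium in these values was not tested.

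The liver microRNA miR-122-5p stood at 335, 77.7, 777 and 115 (0.89 ± 1.20), high in replicate 1 of both groups, and the groups overlapped. Over all features, the deviations of same-numbered libraries from their group means had a correlation of 0.33 across the 241 features.

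The direction was also compared within groups of microRNAs that share a seed. Of 170 distinct seeds among the 215 matched features, 26 had at least 2 members (71 features), and in 17 of the 26 all members were on one side of 0. Most of these 26 hold only 2 members, and how many would lie on one side by chance was not tested. The seed GAGGUAG had 9 of 9 let-7 members above 0, with a median of 0.11. CUGGACU had 4 of 4 miR-378 forms below 0 without overlap, with a median of -0.87. Over all features 54.4% were above 0 and 24.1% were lower without overlap. The members of each of these groups differ at few bases, so they are uncertain as separate measurements. The seed AUCUUAC of miR-200b-5p and miR-200a-5p had both below, whereas AACACUG of miR-141-3p and miR-200a-3p had both above.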

How the data were processed

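Small RNA of 2 shCTRL and 2 shEZH2 libraries of C4-2 cells was measured. The deposited values are RPM, which the authors scaled so that each library's reads total 1000000, per the file headers. Per the submitters' processing notes, the tools were cutadapt, TopHat, HTSeq and edgeR with build hg19, and none is tied to small RNA. The sources used here do not give the microRNA reference or the treatment of reads that match several names. The labels describe 2 extraction protocols, of which a Qiagen kit with BGI sequencing is given for small RNA. Every deposited value was a whole multiple of 1 read (100% within 0.01 of a whole read), so divisors and reads were recovered.

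Values were rescaled to a sum of 1000000 over all rows of a library, and rows that reached 5 RPM as deposited in 2 or more libraries (241 of 1506) were kept. log2(value + 1) was tested in R 4.3.3 with limma 3.58.1 (mean-variance trend, robust, two-sided, Benjamini-Hochberg over 241), so fold changes of low rows are understated. Robust fitting lets a row with a wide spread keep weight of its own. A feature is called at an adjusted p under 0.05, and ± is the standard error. edgeR 4.0.16 and DESeq2 1.42.0 on the recovered reads, other scalings, pseudocounts and filters, a replicate block and leaving out each library were alternatives. Arm ratios were log2 of reads plus 1, 5p against 3p, tested with limma without a trend. In both fits limma draws the spread of a row or hairpin toward that of the others, and the p-values rest partly on it. The scripts were tested on simulated data. Sequences and GC content come from RefSeq (GRCh38.p14).

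Named features are all let-7 members, the 8 largest rises and falls without overlap and a mean of at least 50 RPM, the 10 most abundant, and for each list its most abundant member and the one with the smallest p. Others named were chosen after their values were seen. Members and lists were chosen with earlier results of these data known. No column lacked a sample and no row a name.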

Additional observations from a re-analysis of the deposited data

How the results depend on the processing

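The count of called features, 0 by limma, was 1 on the values as deposited (miR-143-3p), 5 without a filter on low values (miR-200b-5p, miR-143-3p, miR-378a-3p, miR-345-5p and miR-1307-3p of 1506 tested), 1 with at least 50 RPM in at least 2 libraries (104 features tested) and 11 by DESeq2. It was 0 in each of the 11 other settings that kept all libraries, and 0 to 0 when 1 library was left out. Nothing in the labels says that replicate numbers pair the libraries, and with 2 pairs the correlation of 0.33 between same-numbered libraries does not decide it. The fit with a replicate block called 0 features, with 47 at an unadjusted p under 0.05 against 27 without it. The count of called arm ratios, 6 of 37, was 0 with a replicate block, 1 with at least 50 RPM (7 hairpins tested) and 2 to 5 when 1 library was left out. The causes were not tested. Of 1586 values of 85 named features under alternatives, 1522 kept direction and call, 18 passed the threshold only under the alternative and 46 reversed, in 26 features.

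On the values as deposited, where the median of all features is 0.43, these turned positive: let-7a-3p (0.39), miR-200c-3p (0.37), miR-378a-5p (0.20), miR-342-5p (0.074), miR-769-3p (0.055), miR-99a-5p (0.38), miR-99b-5p (0.036), miR-203a-3p (0.21), miR-92a-3p (0.16) and miR-652-3p (0.15). Quantile normalization turned let-7a-5p to -0.033, miR-125b-2-3p to -0.075, miR-26b-5p to -0.085 and let-7a-3p to 0.11. Rescaling without let-7 rows turned let-7a-3p to 0.082, miR-200c-3p to 0.020 and miR-99a-5p to 0.035, and edgeR turned miR-99a-5p to 0.0049 and let-7a-3p to 0.057. let-7a-3p also stood at 0.029 with median-ratio scaling, 0.013 without the 10 most abundant rows and 0.043 by DESeq2. With 1 library left out, differences ranged from -0.30 to 0.29 for let-7a-3p, -0.068 to 1.21 for let-7b-3p, -0.023 to 0.24 for let-7c-5p, -0.037 to 0.17 for let-7e-5p and -0.040 to 0.22 for let-7f-5p. They ranged from -0.20 to 0.068 for miR-200c-3p, -0.022 to 0.42 for miR-532-5p, -1.93 to 0.39 for miR-451a, -0.49 to 2.26 for miR-122-5p, -0.12 to 0.020 for miR-99a-5p and -0.020 to 0.21 for miR-26a-5p. They ranged from -0.15 to 0.45 for miR-26b-5p, -0.47 to 0.52 for miR-205-5p, -0.62 to 1.31 for miR-31-5p, -0.038 to 0.31 for miR-191-5p, -0.020 to 0.067 for miR-423-3p and -0.11 to 0.34 for miR-34a-5p.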
